A study of Mus musculus with 81 samples.

Results

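Interferon gamma (IFNγ) is the cytokine by which T cells and NK cells activate macrophages, and the measurements described here are the transcript levels of wild-type (WT) mouse macrophages with and without it. The members are the 6 libraries that the labels give as WT bone marrow-derived macrophages (BMDMs) on day 8 of culture, 3 untreated and 3 given IFNγ for 12 h, out of 81 samples in the series. The WT mice carried H3f3a fl/fl and H3f3b fl/fl, loxP-flanked copies of both genes for histone H3.3, without a Cre gene, on a C57BL/6 background. The knockout used for comparison (H3.3cKO) carried the same floxed alleles with LysM cre/cre, which deletes them in myeloid cells. It had 2 untreated and 2 IFNγ-treated libraries with an unambiguous label. A separate antibody experiment is also used, with WT and H3.3cKO BMDMs given no antibody, a control antibody or an antibody to the type I interferon receptor IFNAR1. It had 3 libraries a group. There the authors added antibody from the start of culture and lysed the cells on day 6, not day 8. Marrow came from 8- to 10-week-old mice of both sexes and was grown in medium with L929 cell supernatant, a source of macrophage colony-stimulating factor, so every group shared that factor. The IFNγ dose is not given in the sources used here, and the replicates are labelled as biological without a mouse identity.

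The 6 WT libraries held between 7057546 and 9512215 counts on genes. Levels are in CPM, counts scaled to library size and to the TMM factors given below. All 12 macrophage markers were detected, with a summed level of 14200 to 15100 CPM untreated and 15600 to 16900 CPM after IFNγ. Without the TMM factors the direction was the opposite. The markers held 1.79% to 1.81% of the counts untreated and 1.49% to 1.59% after IFNγ. Most of the CPM sum was Lyz2, at a mean of 9535 CPM untreated and 10012 CPM treated. Of the 12 markers, 5 rose and 2 fell. Of the markers of other cells, the 11 for T and NK cells summed to at most 0.742 CPM in any library, and Cd3e, Gzma, Gzmb and Ifng itself had 0 counts in all 6. The 12 neutrophil markers summed to 15.3 to 35 CPM, nearly all of it Mmp8, with Elane and Ly6g at 0 counts. The 8 B cell markers summed to 7.66 to 26.4 CPM, mostly Ighm, with Vpreb3 at 0. Stromal markers summed to 23.3 to 106 CPM untreated and to 10.9 to 61.7 CPM after IFNγ, with replicate 2 the highest in both groups. In the knockout, IFNγ replicate 1 stood apart, with 3614967 counts and 57.1% of its reads unmapped, and it entered the shared estimate of spread. Counts of calls are therefore also given without it. For single genes, SEs and lost calls also carry the spread of the knockout libraries, and a fit of the WT libraries alone is given for few. These are bulk libraries, in which fewer cells of a type and less RNA per cell cannot be told apart.

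IFNγ binds a receptor made of IFNGR1 and IFNGR2, whose kinases are JAK1 and JAK2. The signal reaches DNA at gamma-activated sites (GAS), and one of its early targets is the transcription factor IRF1. IRF factors, and the STAT2 and IRF9 complex of type I interferon signalling, bind the interferon-stimulated response element (ISRE). The macrophage that results is known for killing intracellular microbes, presenting antigen and recruiting T cells.

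IFNγ changed a large share of the transcriptome in both directions. Of 13075 genes tested, 2609 rose and 2631 fell with an adjusted p under 0.05, which is 20% and 20.1% of the genes tested. A log2 difference above 1 was reached by 1451 raised genes, above 2 by 642 and above 4 by 185. The lowered genes changed by less, and 1397 lay below -1 and 394 below -2. In 2595 of the raised and 2592 of the lowered genes the 3 treated libraries did not overlap the 3 untreated ones. Over all genes tested, called or not, the treated libraries lay above the untreated ones without overlap in 4124 (31.5%) and below them in 3977 (30.4%). Fitted on the 6 WT libraries alone, the counts were 3336 raised and 3386 lowered, and without the knockout library that stood apart they were 3574 and 3557. The 185 genes raised by more than 4 together held 0.0992%, 0.0879% and 0.0755% of the counts in untreated libraries and 4.25%, 5.29% and 4.32% after IFNγ. The 1397 lowered genes went from between 8.06% and 8.17% of the counts to between 1.87% and 2.5%.

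**Figure D1:**
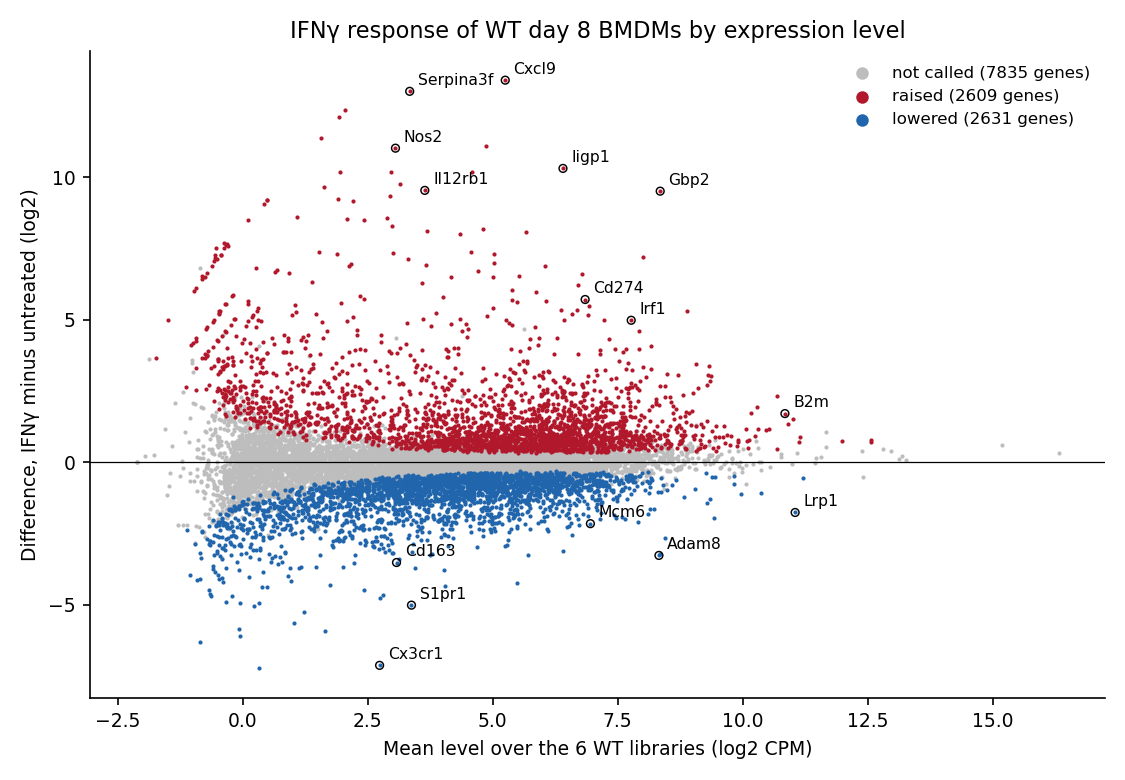
The log2 difference between IFNγ and untreated WT BMDMs (vertical axis) is plotted against the mean level over the 6 libraries in log2 CPM (horizontal axis), each point 1 of 13075 genes, with 2609 raised in red and 2631 lowered in blue. The raised side reaches 13.4 at Cxcl9, and on the lowered side Cx3cr1 is at -7.13.

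The promoters below show where the letters of both elements occur in genes of the pathway. RefSeq windows of the 250 bases before a start (build GRCm38.p6) were found by symbol for 9510 of the tested genes, in 12143 windows. The GAS core searched was TTCNNNGAA, which reads the same on both strands, and the ISRE core was GAAANNGAAA with its reverse TTTCNNTTTC. The ISRE core occurred in 3.0% of the windows of all genes tested and in 8.68% of those of genes raised by more than 1. It occurred in 15% of windows for genes raised by more than 2, in 24.5% for those raised by more than 4, and in 2.38% for genes lowered below -1. The GAS core was present in 5.86%, 7.48%, 9.89%, 14.6% and 4.99% of the same sets in that order. Over the whole RefSeq table of 32851 windows the shares were 2.98% for the ISRE and 7.02% for the GAS core. Windows with both cores made up 0.338% of all tested and 5.96% of those of genes raised by more than 4. A match says only that these letters are present. Shown here are, for the receptor pathway, the IRFs, the guanylate-binding proteins and the class I and II lists, the raised member with a match and the highest level after IFNγ whose window holds at most 30 annotated exon bases. Capitals mark the matched core, all 4 windows are on the plus strand, and each ends at the base before the RefSeq start.
Stat2, chr10:128270248-128270497: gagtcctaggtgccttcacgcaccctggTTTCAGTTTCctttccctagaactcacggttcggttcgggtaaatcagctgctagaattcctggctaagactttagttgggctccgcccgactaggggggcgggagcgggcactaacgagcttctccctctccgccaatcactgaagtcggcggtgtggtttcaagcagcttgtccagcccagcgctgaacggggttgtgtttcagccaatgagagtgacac
Irf1, chr11:53769764-53770013: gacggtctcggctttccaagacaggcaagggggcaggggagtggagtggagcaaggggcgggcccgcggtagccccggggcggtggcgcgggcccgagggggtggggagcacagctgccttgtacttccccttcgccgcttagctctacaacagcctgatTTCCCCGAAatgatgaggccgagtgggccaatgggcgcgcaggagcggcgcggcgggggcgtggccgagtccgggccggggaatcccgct
Gbp3, chr3:142559794-142560043: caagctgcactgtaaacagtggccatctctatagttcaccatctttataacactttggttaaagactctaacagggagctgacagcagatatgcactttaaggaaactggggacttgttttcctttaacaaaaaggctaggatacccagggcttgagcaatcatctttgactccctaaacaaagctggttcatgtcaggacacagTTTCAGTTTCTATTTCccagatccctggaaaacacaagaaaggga
B2m, chr2:122147437-122147686: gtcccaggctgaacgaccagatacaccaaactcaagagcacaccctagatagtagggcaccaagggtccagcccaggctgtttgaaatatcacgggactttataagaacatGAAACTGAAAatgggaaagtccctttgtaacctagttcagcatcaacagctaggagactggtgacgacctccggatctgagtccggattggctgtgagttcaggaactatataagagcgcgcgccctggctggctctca
Irf1 holds a GAS core that begins 90 bases before the start and no ISRE core. Gbp3 holds a pair of overlapping ISRE cores, beginning 45 and 39 bases before the start. In Stat2 and B2m the single ISRE core begins 222 and 139 bases before it.

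**Figure D2:**
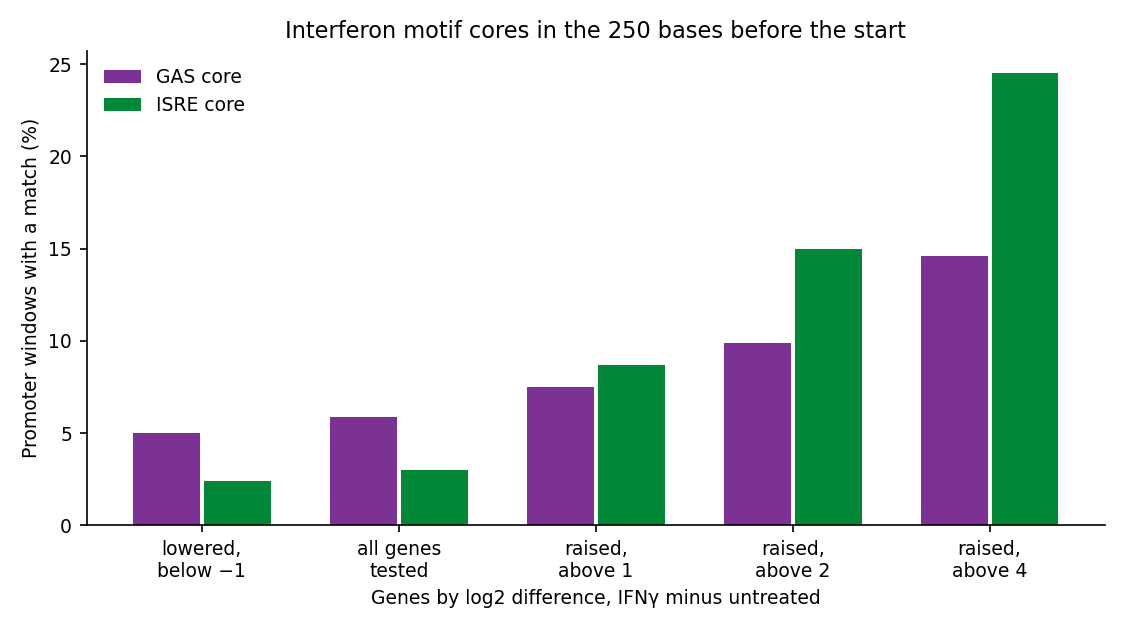
The percent of promoter windows (vertical axis) that hold a GAS core (purple) or an ISRE core (green) is shown for genes grouped by their log2 difference (horizontal axis). The ISRE share goes from 2.38% in lowered genes and 3.0% in all genes tested to 24.5% in those raised by more than 4.

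Of the receptor and its signalling chain, 13 of 17 members rose and 1 fell (median log2 difference 1.5, against -0.0094 over all genes tested). Over all genes tested 20% rose and 20.1% fell, and the counts of each list below stand beside these shares. The ligand-binding chain fell. Ifngr1 was at 102, 144 and 113 CPM in the untreated libraries and at 65.8, 72 and 67.9 CPM after IFNγ, a log2 difference of -0.80 ± 0.22 (SE), adjusted p = 0.0136. Its call was lost without untreated replicate 2 (adjusted p = 0.0506) or IFNγ replicate 3 (adjusted p = 0.0514). Ifngr2, the signalling chain, was higher in treated libraries by 0.53 ± 0.16 (adjusted p = 0.0227), a call that did not hold when any 1 of the 6 WT libraries was left out (adjusted p between 0.0554 and 0.0868). Among the kinases, Jak2 rose from 37 to 193 CPM (2.38 ± 0.16, adjusted p = 2.56e-06) and Tyk2 rose from 74.9 to 211 CPM, while Jak1, at 188 and 233 CPM, did not pass the test (0.31 ± 0.19, adjusted p = 0.217).

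Of the STAT genes, Stat2, whose promoter is shown above, was at 109.5, 94 and 74.8 CPM untreated and at 622, 753 and 608 CPM after IFNγ, 2.83 ± 0.23, adjusted p = 1.02e-05. Stat3, which carries signals of IL-6 and IL-10, rose from 89.4 to 346 CPM. Treated and untreated libraries were apart for both genes.

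The pathway list also holds inhibitors. Socs1, which binds JAK kinases and ends signalling, was at 2.74, 3.08 and 2.54 CPM untreated and at 287, 384 and 399 CPM with IFNγ (7.0 ± 0.24, adjusted p = 1.18e-07). Its relatives Socs3 and Cish differed by 3.91 ± 0.16 and 3.96 ± 0.46, Cish reaching only 3.34 CPM. Usp18, which shuts off the type I interferon receptor, rose from 20.0 to 278 CPM. The phosphatases Ptpn6 and Ptpn2 rose by 1.45 and 1.31 on the log2 scale, while Ptpn11 and Pias1 did not pass the test at 0.18 and 0.22. Ptpn1 passed at 0.38 ± 0.13 (adjusted p = 0.0401) and lost its call when any 1 WT library was left out (adjusted p between 0.0557 and 0.135) or when replicate entered the fit as a block (adjusted p = 0.0741).

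Of 8 interferon regulatory factors tested, 5 rose and 1 fell. Irf1, the primary response factor of IFNγ (ENSMUSG00000018899, chr11:53770014-53778374), rose in every treated library, from 37.3, 43.3 and 36 to 1102, 1362 and 1212 CPM, 4.98 ± 0.18, adjusted p = 1.20e-07. Irf8, which sets myeloid identity and acts with IRF1, rose too, 141, 166 and 133 CPM untreated and 969, 1363 and 1318 CPM treated (3.05 ± 0.22, adjusted p = 4.41e-06). Irf7, the amplifier of type I interferon, rose from 54.1 to 638 CPM (3.56 ± 0.23). Irf5, a factor of inflammatory cytokine genes, and Irf2, an IRF1 antagonist, rose by 1.48 and 1.23. Irf4, linked to alternative activation, fell from 3.6 to 0.89 CPM (-1.95 ± 0.39, adjusted p = 0.00304). Irf9 was at 56.3, 60.1 and 56.6 CPM untreated and 81.5, 79.2 and 67.1 CPM treated, and did not pass the test (0.40 ± 0.20, adjusted p = 0.136). Fitted on the 6 WT libraries alone it passed, with a log2 difference of 0.38. Irf3 was at 30.7 and 37.3 CPM (0.28, adjusted p = 0.164).

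The guanylate-binding proteins (GBPs), large GTPases that coat microbes and their vacuoles, all rose, 11 of 11, with a median log2 difference of 9.18. With the 3 members at or near 0 set to the floor of 3 counts over the untreated group, the median was 8.06. They lie in a pair of clusters, 5 genes at chr3:142493978-142638008 and 6 at chr5:105014150-105346472 (mm10). Gbp2 (ENSMUSG00000028270) was at 10.8, 14.1 and 11.2 CPM untreated and 7924, 9896 and 8479.6 CPM treated, 9.51 ± 0.33, adjusted p = 1.18e-07. Per kilobase of exon it stood at 4.78 CPM untreated and 3484 CPM treated, against 3854 CPM per kilobase for B2m with IFNγ. After IFNγ Gbp2 alone made up most of the family's counts. The family as a whole went from between 0.00834% and 0.00975% of a library to between 1.1% and 1.34%.

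The other members of the chromosome 3 cluster rose from low levels. Gbp3 went from 6.08 to 714 CPM, Gbp5, a regulator of inflammasome assembly, from 3.05 to 816 CPM, and Gbp7 from 9.36 to 469.9 CPM. Gbp2b had 0 counts in all 3 untreated libraries and 1528 in the treated ones, at least 626-fold higher. On chromosome 5, Gbp4 was at 0.878, 0.637 and 0.35 CPM untreated and 707, 797 and 630.1 CPM treated (10.16 ± 0.57, adjusted p = 1.02e-06). Gbp6, Gbp8 and Gbp9 reached 184, 112 and 526 CPM from 0.201, 4.42 and 37.9 CPM. Gbp10, with 0 counts untreated and 203 treated, was at least 83.2-fold higher. Gbp11, annotated as a polymorphic pseudogene, had 1 and 1382 counts, a ratio of 1700 (counting interval 305 to 67200). These genes are close copies of each other, so reads that match several copies were not counted and single members are less certain than the family.

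The immunity-related GTPases (IRGs), which act on pathogen vacuoles together with the GBPs, rose as a whole as well, 12 of 12, with a median of 5.99. Iigp1, an effector IRG, was at 2.3, 2.12 and 2.36 CPM untreated and 2614, 3156 and 2899 CPM treated (10.31 ± 0.47, adjusted p = 2.83e-07). The regulatory members Irgm1, Irgm2 and Igtp rose from 69.9 to 1179.9 CPM, from 36.5 to 556 CPM and from 18 to 808 CPM. Tgtp1 and Tgtp2, near-identical copies between which reads cannot be split with certainty, differed by 10.17 and 6.52, and Ifi47 rose from 26.6 to 846 CPM.

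**Figure D3:**
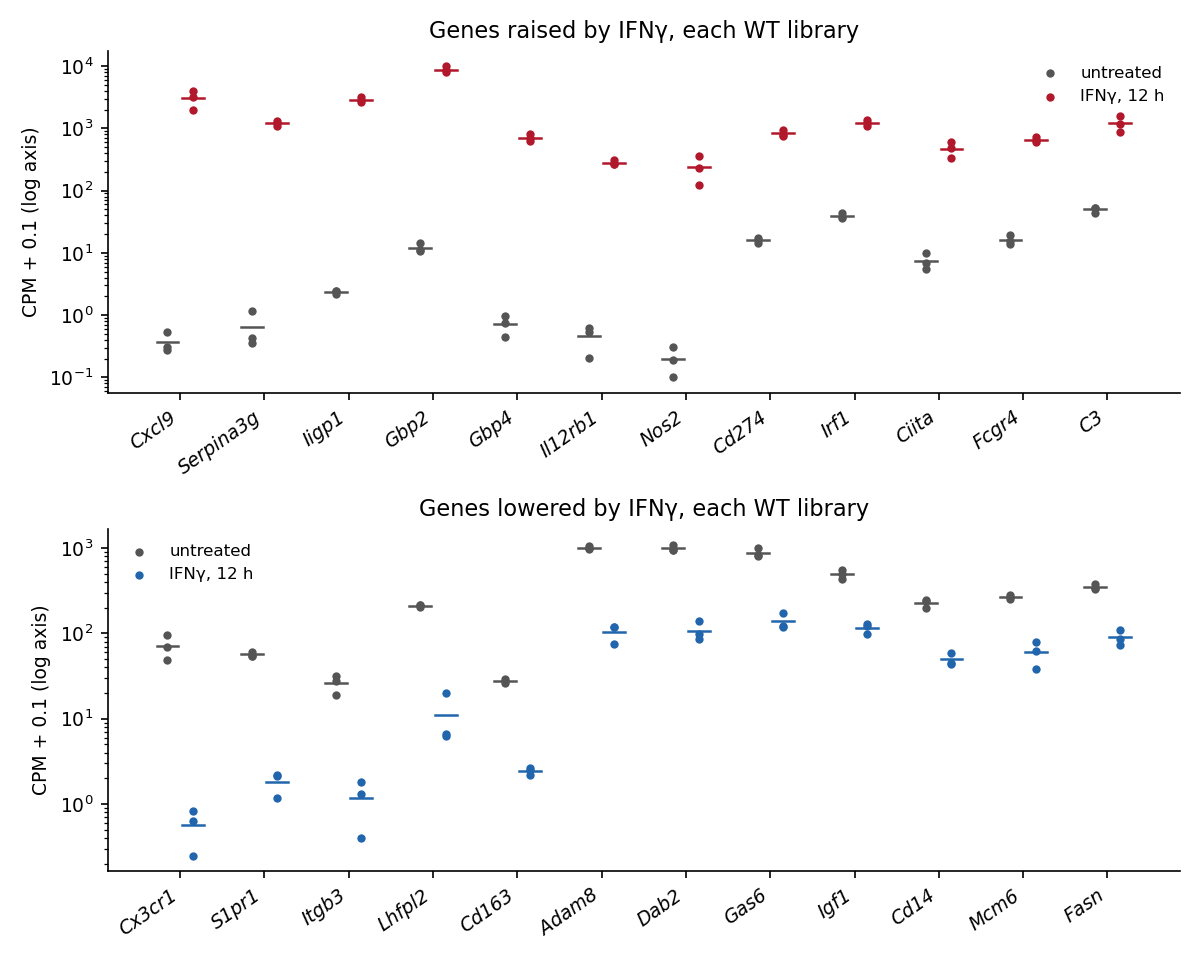
Each point is 1 WT library, in CPM + 0.1 on a log axis, for 12 genes raised (upper panel) and 12 lowered (lower panel) by IFNγ, with untreated libraries in grey and treated ones in colour, and bars at the mean of 3. Gbp2 lies between 10.8 and 14.1 CPM untreated and between 7924 and 9896 CPM treated.

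Antigen presentation rose through both classes. Of 23 class I genes, 21 rose and 0 fell (median log2 difference 2.45), and Calr and Canx, general chaperones of the endoplasmic reticulum, were the 2 that did not pass. The heavy chains H2-K1 and H2-D1 rose from 636 to 2454 CPM and from 1207 to 3480.0 CPM, and the light chain B2m, whose promoter is shown above, was at 1009, 1076 and 969 CPM untreated and 3251, 3459 and 3233 CPM treated (1.7 ± 0.58, adjusted p = 0.0376). Its groups were far apart, yet the call was lost when any 1 WT library was left out (adjusted p between 0.0784 and 0.111). Those fits shared their spread with the knockout libraries. The nonclassical H2-T23, a ligand of inhibitory NK receptors, rose from 93.5 to 894 CPM. The transporter genes Tap1 and Tap2 rose by 3.22 and 2.94, and Tapbp and Tapbpl, which load and edit peptide, by 2.59 and 3.54. The immunoproteasome subunits Psmb8, Psmb9 and Psmb10 rose by 2.35, 2.45 and 2.85. Nlrc5, the transactivator of class I genes, was at 55.3, 51.7 and 41.7 CPM untreated and 439.6, 541 and 412 CPM treated (3.23 ± 0.23, adjusted p = 3.85e-06). H2-Q6 and other Qa genes are close copies, and their single values are uncertain.

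In the class II list, 13 of 15 tested genes rose and 0 fell, with a median of 2.41. Ciita, the transactivator on which class II genes depend, was at 5.49, 9.98 and 6.83 CPM untreated and 329.8, 594 and 491 CPM treated (5.99 ± 0.30, adjusted p = 6.16e-07). The classical chains followed, H2-Aa from 64.8 to 492 CPM, H2-Ab1 from 46.1 to 433 CPM and H2-Eb1 from 36.9 to 212 CPM. The invariant chain Cd74 rose from 238 to 1264 CPM, and H2-DMa, which exchanges its fragment for antigen, from 13.3 to 212 CPM. Of the factors that bind class II promoters with CIITA, Rfx5 rose by 1.04 ± 0.21, while Rfxank and Rfxap did not pass the test at 0.60 and -0.22. H2-Oa, with 1 count untreated and 43 treated, had a ratio of 52.9 (counting interval 9.0 to 2140).

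The 8 dendritic cell markers summed to 3.14 to 4.24 CPM untreated and to 51.6 to 79.4 CPM after IFNγ. Nearly all of that difference was Clec9a, a receptor for dead cells (0, 0.106 and 0.263 CPM untreated, 44.4, 66.8 and 53.5 CPM treated, 8.54 ± 0.45), and Xcr1 rose from 0.362 to 5.48 CPM. The defining markers Flt3 and Siglech had 1 and 0 counts in untreated libraries and the same after IFNγ, Cd209a had 7 and 1, and Zbtb46 had 20 and 28. The part of dendritic cells in the class II values was not tested.

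Among costimulatory and inhibitory ligands, 9 of 17 rose and 3 fell. Cd274, which encodes PD-L1, was at 15.8, 17.3 and 14.5 CPM untreated and 778, 951 and 759 CPM treated (5.71 ± 0.21, adjusted p = 1.20e-07). The ligand PD-L2, encoded by Pdcd1lg2, went from 0 counts to 67, at least 27.5-fold higher. Cd40 and Cd86 rose from 6.46 to 317 CPM and from 4.95 to 174 CPM, whereas Cd80, at 6.7 and 8.52 CPM, did not pass the test (0.35 ± 0.42, adjusted p = 0.534). The adhesion ligand Icam1 rose from 44.4 to 689 CPM (3.96 ± 0.22). Of the CD47 pair, the "don't eat me" ligand Cd47 rose from 285 to 761 CPM and its receptor Sirpa fell from 1920.1 to 905 CPM. Havcr2 (TIM-3) and Tnfsf9 fell by 1.13 and 1.24 on the log2 scale, and Havcr2 lost its call without untreated replicate 1 or 3 or treated replicate 2 or 3 (adjusted p up to 0.126).

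Chemokine genes divided, with 7 of 19 raised and 6 lowered. The CXCR3 ligands rose. Cxcl9 (ENSMUSG00000029417, chr5:92321347-92328079) had the largest change among well-expressed genes, at 0.439, 0.212 and 0.175 CPM untreated and 1983, 3989 and 3213 CPM treated (13.4 ± 0.96, adjusted p = 4.30e-06). Its neighbours Cxcl10 and Cxcl11 rose from 11.5 to 1117 CPM and from 0.189 to 77.2 CPM, with 41.7% of the Cxcl11 exon bases shared with another annotated gene. Cxcl11 is annotated as a polymorphic pseudogene, and whether its transcript gives a chemokine was not tested. Ccl5 and Ccl8, which attract T cells and monocytes, rose from 0.602 to 94.4 CPM and from 0.135 to 24.6 CPM, Ccl12 from 2.35 to 37.4 CPM, and Cxcl16 from 57.5 to 224 CPM. The neutrophil attractants Cxcl1 and Cxcl2 fell, Cxcl1 with a call lost under the replicate block (adjusted p = 0.0578) or without any WT library but treated replicate 2 (up to 0.144), and Cxcl2 from 6.15, 8.18 and 6.57 to 0, 0.446 and 0.723 CPM (-4.17 ± 0.55, adjusted p = 2.26e-04). Ccl3, Ccl4 and Ccl9 fell as well, from 41 to 6.92 CPM, from 29.4 to 8.31 CPM and from 506 to 160.4 CPM. The monocyte attractant Ccl2, at 147, 45.5 and 106 CPM untreated and 186, 84.7 and 113 CPM treated, varied within each group and did not pass the test (adjusted p = 0.607).

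Receptors for these signals changed in both directions, 4 of 11 raised and 5 lowered. The fractalkine receptor Cx3cr1 (ENSMUSG00000052336) fell the most of the listed genes, from 95.2, 48.1 and 69.1 to 0.536, 0.149 and 0.723 CPM, -7.13 ± 0.38, adjusted p = 8.20e-07. Each treated library held between 1 and 6 counts of it, so the difference rests on few treated reads. Cxcr3, the receptor of Cxcl9, fell from 4.27 to 0.371 CPM, Ccr3 from 3.55 to 0.192 CPM, Cxcr4 from 64.1 to 12.2 CPM, and C5ar1, the receptor of complement C5a, from 525 to 148 CPM. Raised members included Ccrl2 (from 5.83 to 46.4 CPM), along with Fpr2 and Cmklr1 (3.3 and 1.58). Cmklr1 lost its call without untreated replicate 1 or 3 or treated replicate 2 or 3 (adjusted p up to 0.0738).

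Of 21 cytokines and cytokine receptors tested, 16 rose and 2 fell. Il12rb1, a chain of the IL-12 and IL-23 receptors, was at 0.439, 0.106 and 0.525 CPM untreated and 267, 310.2 and 269 CPM treated (9.54 ± 0.36, adjusted p = 1.23e-07), but Il12a and Il12b were too low to be tested, as were Il1a, Il1b, Il6 and Ifnb1. Tnfsf10, the death ligand TRAIL, rose from 5.2 to 341 CPM (6.05 ± 0.51). Il15 and its presenting receptor Il15ra, which sustain NK and memory T cells, rose from 15.3 to 98.3 CPM and from 2.72 to 37.1 CPM. Il27, which acts back on T cells, rose from 1.19 to 18.8 CPM while its partner Ebi3, at 10.9 and 11.3 CPM, did not pass the test. The decoys Il18bp and Il1rn rose by 4.39 and 3.17, above the 1.22 of Il18 itself on the log2 scale. Tnf rose from 46.3 to 146 CPM. The receptors Il10ra and Il4ra rose from 72.5 to 443 CPM and from 83.2 to 296 CPM, whereas Il6ra and the cytokine gene Osm fell, from 68.6 to 40.0 CPM and from 3.94 to 1.98 CPM. Osm lost its call under the replicate block (adjusted p = 0.0773) and without any WT library but untreated replicate 2 (up to 0.152).

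Genes of nitric oxide, itaconate and tryptophan metabolism rose in 10 of 12 cases, with a median of 2.45. Nos2, the inducible nitric oxide synthase, had 3 counts over the untreated libraries and 5478 over the treated ones, at 123, 356 and 234 CPM, with a ratio of 2250 (counting interval 768 to 10900) and an adjusted p of 3.35e-06. Among treated libraries, replicate 2 was the highest and replicate 1 the lowest. Some genes that supply its substrates rose less, with Ass1 and Slc7a2 for arginine at 2.1 and 1.4, and Gch1, for the cofactor tetrahydrobiopterin, at 1.72. Asl and Pts, listed with them, were the 2 members that did not pass the test. They were at 0.31 (adjusted p = 0.144) and -0.19 (adjusted p = 0.607). Arg1 and Arg2, which compete for arginine, were too low to be tested. Acod1, which makes itaconate, was at 20.3, 6.8 and 10.9 CPM untreated and 976, 947 and 869 CPM treated (6.2 ± 0.58, adjusted p = 2.38e-05). In tryptophan breakdown Kynu rose from 0.307 to 121 CPM, while Ido1, the entry enzyme, only went from 1 count to 65. Wars, the tryptophan tRNA ligase, rose from 44.7 to 313 CPM.

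In the phagocyte oxidase, the membrane subunits Cybb and Cyba and the cytosolic Ncf1 rose (1.72, 0.88 and 1.14), while Ncf4 and Rac2 did not pass the test. Cyba lost its call without untreated replicate 1 or treated replicate 3 (adjusted p = 0.0585 and 0.0506). The 4 lowered genes of the list handle metals. Tfrc, the transferrin receptor, fell from 140.4 to 40.6 CPM, Slc40a1, the iron exporter ferroportin, from 127 to 43.4 CPM, and Hmox1, which frees iron from heme, from 246 to 76.2 CPM. Slc39a14, a zinc and iron importer, fell by 2.02 on the log2 scale. The whole list gave 3 raised and 4 lowered of 13, beside shares of 20% and 20.1% over all genes tested. It had 7 lowered when the 6 WT libraries were fitted alone, with or without the replicate block.

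Genes usually described as type I interferon-stimulated rose with IFNγ too, 37 of 39 with 0 lowered and a median of 2.71. Ifit2 was at 93.3, 74.6 and 61.5 CPM untreated and 2932, 3546 and 2495 CPM treated (5.29 ± 0.36, adjusted p = 3.03e-06). Mx1, Rsad2 (viperin), Isg15 and Zbp1, a sensor of Z-form nucleic acid, rose from 16 to 587 CPM, from 63.1 to 988 CPM, from 13.5 to 275 CPM and from 13.1 to 528 CPM. The nucleic acid sensors Ifih1 and Ddx58 rose by 3.05 and 1.81, and Tmem173, which encodes STING, from 32.9 to 252 CPM. Cgas, the sensor upstream of STING, was at 24.6 and 35.2 CPM and did not pass the test (adjusted p = 0.0709), nor did Ifitm2 (35.8 and 39 CPM). Of the PYHIN family of DNA-binding proteins, 9 of 11 rose, with Ifi205 from 0.658, 0.637 and 0.70 to 163, 222 and 176 CPM (8.1 ± 0.44) and Aim2 from 32.8 to 77.1 CPM. PYHIN genes are near-copies in 1 cluster, and their single values are uncertain.

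Of 21 genes of the Toll-like receptor pathway, 8 rose and 3 fell, beside 20% and 20.1% of all genes tested. Tlr12 and Tlr11, the mouse receptors for protozoan profilin, had 0 counts untreated and 911 and 54 treated, at least 374-fold and 22.1-fold higher. Tlr9 and Tlr3, which sense nucleic acids in endosomes, rose from 23 to 209 CPM and from 19.8 to 88.3 CPM, and the adaptor Myd88 from 48.7 to 150.1 CPM. Cd14, the lipopolysaccharide co-receptor, fell from 198, 245 and 239 to 43.5, 45.4 and 59 CPM (-2.2 ± 0.18, adjusted p = 8.44e-06), Tlr5 fell from 3.27 to 0.702 CPM, and Irak3, an inhibitor of the pathway, from 17 to 5.66 CPM. Tlr7 and Tlr13 did not pass the test (-0.16 and -0.54). Fitted with a block for replicate on the 6 WT libraries, 6 members were lowered. Of the NF-kB genes, 10 of 16 rose, among them the inhibitors Nfkbie (2.55) and Tnfaip3 (1.84), while Rela was at 69.5 and 76.4 CPM.

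Cell death genes rose in 16 of 26 cases and fell in 4. Casp4, the sensor of cytosolic lipopolysaccharide known as caspase-11, rose from 13.3, 15.9 and 12.6 to 141, 174 and 145 CPM (3.46 ± 0.16, adjusted p = 3.20e-07). Mlkl, the executioner of necroptosis, rose from 16.4 to 153 CPM, Casp1 from 68.9 to 239 CPM, and Gsdmd, which forms the pyroptotic pore, from 53.3 to 169 CPM. The death receptor Fas rose from 4.12 to 42 CPM, and the membrane rupture gene Ninj1 from 119 to 449 CPM. Gsdme, Tnfrsf10b and the survival genes Bcl2 and Bcl2l1 were the 4 that fell (-1.22, -1.59, -0.69 and -0.63). Tnfrsf10b lost its call without any WT library but untreated replicate 2 (adjusted p up to 0.101), and Bcl2l1 without untreated replicate 1 or 3 or treated replicate 2 or 3 (up to 0.1).

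Fc gamma receptors and complement rose in 13 of 17 genes, and only C3ar1 fell, from 1034 to 386 CPM. Fcgr4 was at 15.4, 19 and 13.9 CPM untreated and 595, 723 and 658 CPM treated (5.35 ± 0.56, adjusted p = 4.98e-05). The high-affinity Fcgr1 rose from 131 to 831 CPM and Fcgr3 from 212 to 782 CPM, while the inhibitory receptor Fcgr2b was at 44.2 and 56 CPM (adjusted p = 0.111). C3, the central complement protein, rose from 52.8, 53.4 and 42.9 to 888, 1578 and 1167 CPM (4.61 ± 0.37). The C1q chains C1qa, C1qb and C1qc rose by 0.94, 1.33 and 1.16, and C1qa lost its call without untreated replicate 1 or 3 or treated replicate 2 or 3 (adjusted p between 0.08 and 0.102). Cfb had 1 count untreated and 67 treated, a ratio of 82.4 (counting interval 14.3 to 3300), and 79.5% of its exon bases are shared with another annotated gene.

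**Figure D4:**
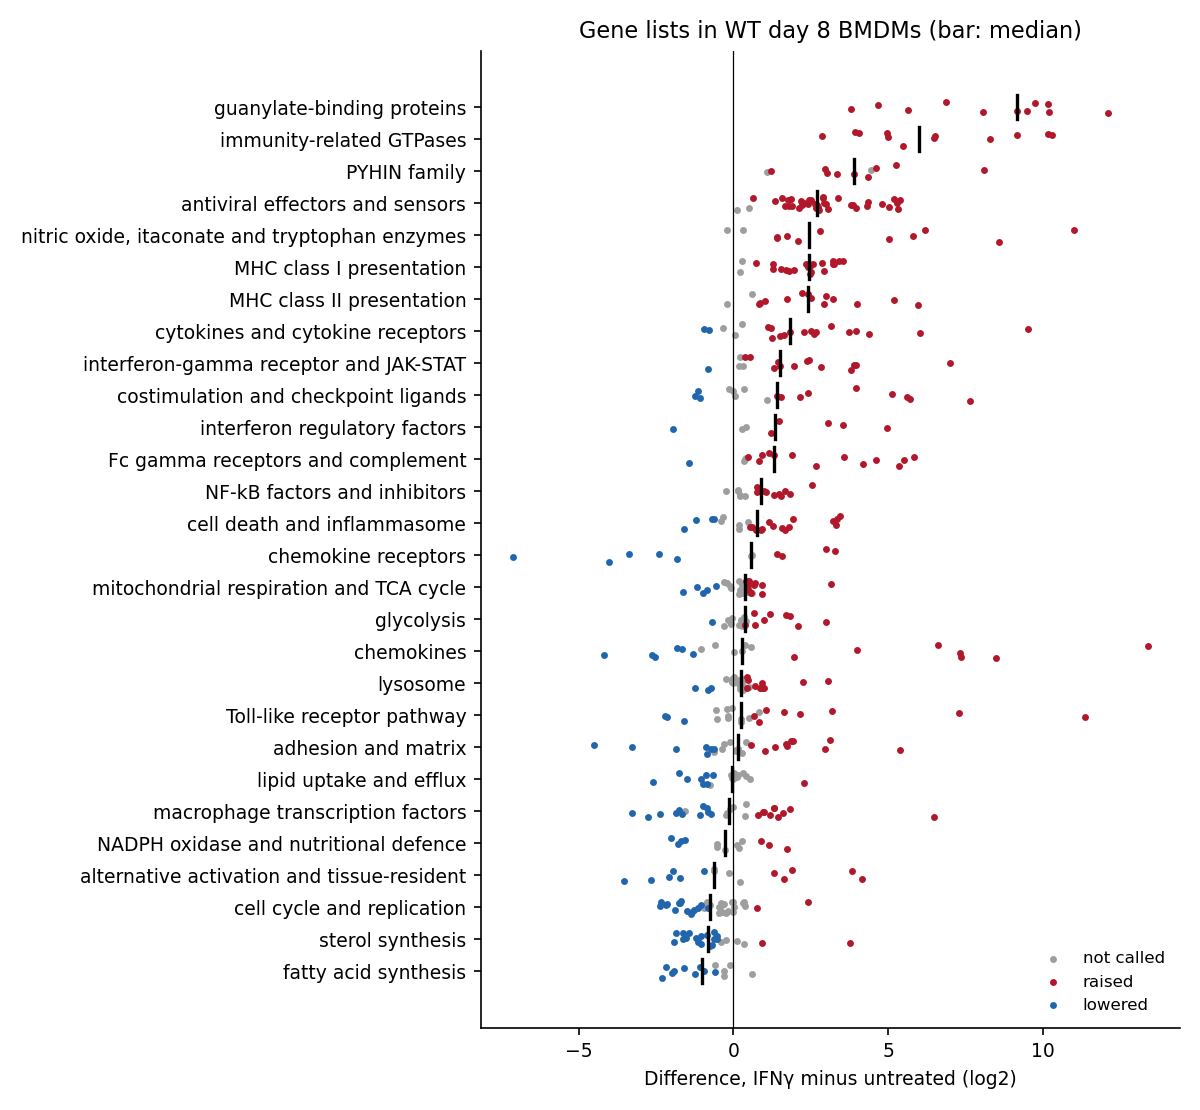
The log2 difference between IFNγ and untreated libraries (horizontal axis) is shown for the tested members of 28 gene lists, 1 point per gene, raised in red, lowered in blue and not called in grey, with a black bar at each median. Medians run from 9.18 in the guanylate-binding proteins to -1.01 in fatty acid synthesis.

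On the lowered side, the genes with the largest changes at a mean level of at least 3 log2 CPM included genes of migration, lipid mediators and endocytosis. S1pr1 (ENSMUSG00000045092, chr3:115710433-115715072), the sphingosine-1-phosphate receptor that guides leukocytes out of tissue, was at 54.3, 60.4 and 54.7 CPM untreated and 2.04, 2.08 and 1.08 CPM treated (-5.02 ± 0.23, adjusted p = 3.59e-07). Alox5, which starts leukotriene synthesis, fell from 30.7, 20.9 and 31 to 2.89, 2.08 and 2.77 CPM (-3.39 ± 0.22), and Hpgd, which inactivates prostaglandins, from 39.8 to 2.96 CPM. Dab2, an endocytic adaptor, was at 952, 1097 and 950.0 CPM untreated and 141, 85.1 and 96.9 CPM treated (-3.21 ± 0.31, adjusted p = 2.79e-05). The metalloprotease Adam8 fell from 1008 to 104 CPM, and the lipid transporter Abcb4 from 41.3 to 4.26 CPM. Dusp4, a phosphatase of MAP kinases, fell from 59.2 to 4.27 CPM. The other 4 of the 12 were Rnf150 (-4.35), Lhfpl2 (-4.25), Nav2 (-3.27) and Reps2 (-3.23), besides Cd163 below.

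Genes of alternative activation and tissue residence divided, 5 of 15 raised and 6 lowered. Cd163, the scavenger receptor for hemoglobin, fell from 27.3, 28.8 and 26.2 to 2.57, 2.08 and 2.41 CPM (-3.52 ± 0.18, adjusted p = 6.23e-07). Gas6, a bridge to dying cells, fell from 883 to 138 CPM, Igf1 from 495 to 116 CPM, Stab1 from 1363 to 354 CPM, and the mannose receptor Mrc1 from 751 to 387 CPM. Raised members were Pdgfc (from 2.17 to 30.8 CPM), the lectins Clec10a (1.89) and Clec7a (1.62, not called without untreated replicate 1, adjusted p = 0.0544), and Tgm2 (1.32). Timd4 was called at 4.15 ± 1.40, from 1.32, 0.106 and 0 to 19.4, 2.53 and 1.81 CPM, a call lost under the replicate block (adjusted p = 0.0544), and without untreated replicate 2 or 3 or treated replicate 1 (adjusted p = 0.111, 0.127 and 0.276). Arg1, Chil3 and Retnla, the usual markers of the state, were too low to be tested.

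Lipid handling was lowered more often than raised, with 8 of 20 uptake and efflux genes lowered and Abcg1 the 1 raised. Abcg1, which exports cholesterol, rose from 158, 166 and 151 to 659.9, 888 and 745 CPM (2.27 ± 0.18, adjusted p = 8.53e-06), while its partner Abca1 fell from 211 to 118 CPM. Lrp1, a receptor for remnant lipoproteins, fell from 3907 to 1147 CPM, the scavenger receptor Msr1 from 459 to 224 CPM (not called without treated replicate 2, adjusted p = 0.0587), Fabp4, a fatty acid carrier, from 28.3 to 4.54 CPM and the nuclear receptor Pparg from 23.7 to 8.27 CPM. Gpnmb, a glycoprotein of lipid-laden macrophages, was at 8559.9 and 9254 CPM and did not pass the test. Fitted on the 6 WT libraries alone, 3 members were raised, and 4 when the replicate block was added.

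The sterol pathway was lowered at most of its steps, with 18 of 24 genes lowered, 2 raised and a median of -0.81. Sqle, the squalene epoxidase, was at 127, 132 and 123 CPM untreated and 40.1, 28.1 and 32 CPM treated (-1.92 ± 0.15, adjusted p = 5.91e-06). The late enzyme Cyp51 fell from 122 to 44.9 CPM. The early enzyme Hmgcs1 fell by 1.15 on the log2 scale and the regulator Srebf2 by 0.52. Ch25h, whose product 25-hydroxycholesterol restrains the pathway, rose from 9.0, 2.76 and 4.73 to 64.7, 81.9 and 79.1 CPM (3.78 ± 0.51, adjusted p = 2.70e-04), and Pmvk was the other raised member (0.92). Pmvk lost its call without untreated replicate 1 or 3 or treated replicate 2 or 3 (adjusted p up to 0.0816).

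Fatty acid synthesis had 9 of 14 genes lowered and 0 raised. Fasn, the fatty acid synthase, fell from 382, 334 and 338 to 110.2, 73.8 and 85.6 CPM (-1.97 ± 0.28, adjusted p = 3.25e-04). The elongase Elovl6 fell from 13.8 to 2.71 CPM, the desaturases Fads1 and Fads2 from 134 to 44.2 CPM and from 46.6 to 12.4 CPM, and Acsl3 from 35.9 to 7.82 CPM. Srebf1 and Scd2 did not pass the test (-0.31 and -0.30).

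**Figure D5:**
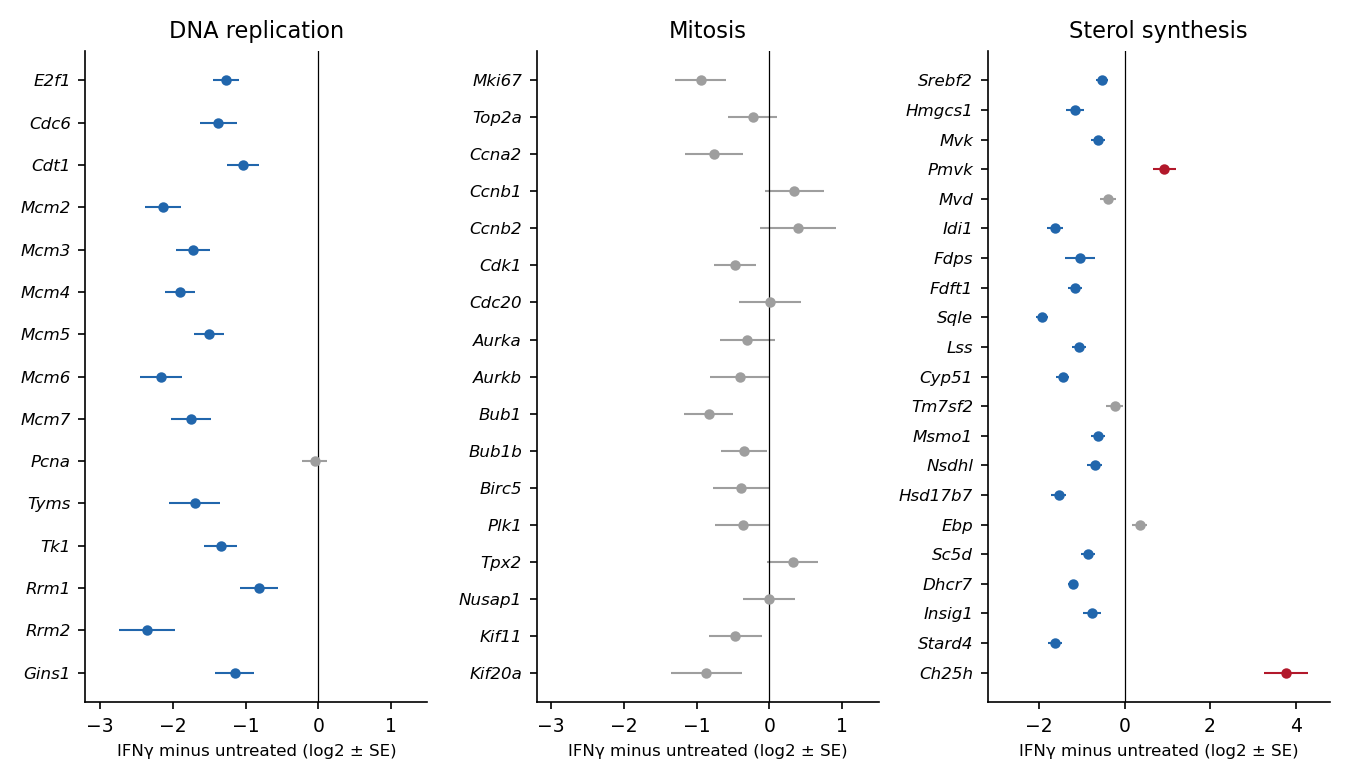
The log2 difference between IFNγ and untreated libraries, with its SE, is shown for 15 genes of DNA replication, 17 of mitosis and named genes of the sterol list, lowered in blue, raised in red and not called in grey. Of the replication genes 14 are blue and Pcna is grey, all 17 mitosis genes are grey, and most sterol genes are blue with Ch25h and Pmvk red.

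Cell cycle genes fell in 15 of 37 cases and rose in 2. The lowered ones were 14 genes of DNA replication and Myc. When the list was divided by function, after the values were seen, 14 of 15 replication genes were lowered (median -1.5), and 0 of 17 mitosis genes (median -0.37, smallest adjusted p = 0.0523). Mcm6, a subunit of the replicative helicase, was at 253, 280.0 and 268 CPM untreated and 78.5, 38.5 and 61.9 CPM treated (-2.16 ± 0.29, adjusted p = 2.48e-04), and Mcm2, Mcm3, Mcm4, Mcm5 and Mcm7 fell by between 1.5 and 2.14. Rrm2, which makes deoxynucleotides, fell from 129 to 25 CPM, and Tyms from 31.9 to 9.71 CPM. Pcna, the replication clamp, was at 397 and 384 CPM.

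For the mitosis genes the replicates spread widely. Mki67 was at 736, 247 and 548 CPM untreated and 357, 192 and 245 CPM treated (-0.95 ± 0.35, adjusted p = 0.0523), and Top2a at 509, 188 and 428 and 438, 211 and 309 CPM. Replicate 2 was the lowest in both groups for both genes. With replicate as a block on the 6 WT libraries, 11 of the mitosis genes were lowered and the whole list had 26 lowered. The transcription factor Myc, which drives growth, fell from 38.8 to 7.37 CPM (-2.36 ± 0.49), Ccnd2 rose from 40.7 to 218 CPM, and the cell cycle inhibitor Cdkn1a rose by 0.75 ± 0.22, a call lost without treated replicate 2 or 3 (adjusted p = 0.0528 and 0.0557).

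In glycolysis 9 of 20 genes rose and 1 fell, led by Hk3, a hexokinase of myeloid cells, from 232, 231 and 233 to 1659, 2032 and 1905 CPM (3.01 ± 0.26, adjusted p = 1.42e-05). Pfkp and Pfkfb3, which set flux at phosphofructokinase, rose by 2.1 and 1.7, and the regulator Hif1a by 1.85, while Ldha was at 616 and 731 CPM. Of 33 mitochondrial genes 12 rose and 5 fell. The lowered ones were dehydrogenases of isocitrate and other enzymes of the citrate cycle, Idh2 from 62.3 to 20.2 CPM, Idh1, which acts in the cytosol, from 153 to 77.9 CPM, and Suclg2, Idh3a and Fh1 by 1.17, 0.84 and 0.57. Of the 12 raised, 10 were subunits of the respiratory chain or ATP synthase, each with a log2 difference under 1, and the raised count moved between 4 without untreated replicate 1 and 21 without knockout IFNγ replicate 1 or 2, with 7 under the replicate block. Ppargc1b, a coactivator of mitochondrial genes, rose from 3.58 to 32.1 CPM. The summed level of the mitochondrial list was 3123 to 3154 CPM untreated and 3722 to 4097 CPM after IFNγ. Without the TMM factors it was not higher, at 0.375% to 0.392% of the counts untreated and 0.355% to 0.382% after IFNγ. The direction of the sum therefore depended on the scaling.

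Lysosomal genes rose in 11 of 32 cases and fell in 3, beside 20% and 20.1% of all genes tested. The cysteine proteases Ctsc and Ctsh rose from 219 to 1832 CPM and from 96.1 to 458 CPM, while Ctsb was at 8569.9 and 10062 CPM and did not pass the test. Ctsl fell from 518 to 296 CPM. The raised count ranged from 5 without untreated replicate 1 or 3 to 18 with the block on the 6 WT libraries.

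Macrophage transcription factors gave 10 raised and 11 lowered of 28, beside 20% and 20.1% of all genes tested. Batf2, an IRF1 partner, rose from 2.52, 2.55 and 0.70 to 144, 196 and 169 CPM (6.49 ± 0.45, adjusted p = 3.31e-06), and Spi1, the master factor PU.1, from 183 to 321 CPM. Egr1 fell from 14.5 to 1.51 CPM, Bhlhe41 from 112 to 16.4 CPM, Id3 from 13.6 to 2.56 CPM and Cebpa from 84.9 to 24.8 CPM. Zeb2, at 438 and 368 CPM, did not pass the test. Of 27 adhesion and matrix genes 10 rose and 7 fell, beside the same shares of all genes tested. The integrin Itgb3 fell from 31.2, 19 and 27.4 to 1.72, 0.298 and 1.2 CPM (-4.5 ± 0.42, adjusted p = 2.45e-05) and Itgb5 from 195 to 53.8 CPM, whereas Itga4 and Itgal rose from 214 to 706 CPM and from 62.4 to 238 CPM. Vcan, a matrix proteoglycan, rose from 7.02 to 61.2 CPM. Of 13 housekeeping genes, Hprt and Ywhaz rose by 0.56 and 0.68 and Polr2a fell by 0.48, and the median over them was 0.26. Polr2a lost its call under the replicate block (adjusted p = 0.0513) and without any WT library but treated replicate 1 (up to 0.0798).

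The design also asks whether macrophages labelled H3.3cKO respond to IFNγ as WT ones do. The difference between the 2 responses passed the test in 0 of 13075 genes (0% called) with edgeR, with 1105 genes at an unadjusted p under 0.05, and in 83 with DESeq2. This comparison rests on 2 knockout libraries a group. Without knockout IFNγ replicate 1, 37 genes passed, 25 with a larger and 12 with a smaller response in the knockout, and without replicate 2, which leaves the library that stood apart, 3359 passed. In the libraries labelled H3.3cKO, H3f3a was at 7.31 and 7.33 CPM untreated and 1.21 and 5.3 CPM treated, against 41.4, 43.5 and 46.7 CPM in untreated WT. H3f3b was at 173, 187, 325 and 237 CPM in the same order, against 206, 244 and 226 CPM in untreated and 312, 316 and 314 CPM in treated WT, below the WT libraries of the same treatment in 3 of the 4. Of the 1451 genes raised by more than 1 in WT, 1440 were higher with IFNγ in the knockout and 1177 of them were called, and of the 1397 lowered below -1, 926 were called lowered. Over all 13075 genes, 2249 (17.2%) were called raised and 2150 (16.4%) lowered in the knockout. Gbp2 differed by 9.51 in WT and 7.29 in the knockout, where untreated libraries were already at 28 and 31.5 CPM (difference of the responses -2.22 ± 0.37, adjusted p = 0.115). Iigp1 differed by 10.31 in WT and 5.88 in the knockout (difference -4.43 ± 0.54, adjusted p = 0.0892), and Gbp6 by 9.74 and 5.21 (difference -4.53 ± 0.69, adjusted p = 0.0939). In untreated knockout libraries Iigp1 was already at 21.5 and 22.8 CPM and Gbp6 at 2.84 and 4.6 CPM. In knockout IFNγ replicates 1 and 2, Iigp1 was at 665 and 1943 CPM and Gbp6 at 79.1 and 189.9 CPM. Replicate 1 is the library that stood apart. None of these 3 differences passed the threshold, and the 3 genes are examples with a smaller response in the knockout. For Cxcl9 the log2 differences in WT and the knockout were 13.40 and 10.79, and for S1pr1 -5.02 and -4.24 (adjusted p = 0.651 and 0.594 for the difference).

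A separate experiment in the series held WT BMDMs given an antibody to IFNAR1, the type I interferon receptor, or a control antibody, 3 libraries each, with no IFNγ named in the labels. It gives only the levels of the IFNγ-raised genes without IFNγ, with type I interferon signalling blocked or not. The part of type I interferon in the IFNγ response was not tested. Some of these genes were near 0 with the control antibody already, such as Iigp1 at 0.202 CPM and Gbp6 at 0.134 CPM. Such genes could hardly be called lower. Others, such as Irf1 at 15.3 CPM, had room to fall. Of the 1324 genes raised by more than 1 that were tested there, 46 were called lower with the IFNAR1 antibody, which is 3.47%, against 3.67% of all 12875 genes. In the other direction, 111 of the 1324 were called higher, against 1058 (8.22%) of all genes. Of those raised by more than 2, 18 of 522 were lower. These counts depended on single libraries, from 6 of 1343 without control antibody replicate 2 (0.447%, against 0.24% of all genes) to 225 of 1344 without IFNAR1 antibody replicate 3 (16.7%, against 21% of all genes). With replicate as a block 72 were lower, 5.44% against 5.4% of all genes. A fit of the 9 WT libraries of that experiment alone gave 16 (1.27% against 0.565%).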

How the data were processed

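The authors trimmed reads with Cutadapt, aligned them to mm10 with STAR (per the labels; versions and annotation release are not given in the sources used here), and deposited STAR's raw counts per gene. Libraries were made from rRNA-depleted total RNA. The unstranded count column was used, since both strand columns held similar totals, so antisense and overlapping genes cannot be told apart. Multimapping reads (10.9% to 16.5% of reads in the 6 WT libraries), unmapped reads (14.4% to 17.8%), reads outside genes (8.46% to 12.7%) and ambiguous reads (4.47% to 4.81%) name no gene and were left out, which makes near-identical paralogs uncertain.

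All 10 day 8 libraries with a group (WT 3 and 3, H3.3cKO 2 and 2) were fitted together in edgeR 4.0.16 with TMM factors, filterByExpr (count 10, total 15), the quasi-likelihood test and Benjamini-Hochberg adjustment over all 13075 genes tested. Errors of log2 differences are SE and errors of levels SD (n = 3), in CPM scaled by TMM. The count factors were 1.20 to 1.25 in untreated and 0.93 to 0.98 in treated WT libraries. Another 2 knockout libraries, whose title and library name disagree on IFNγ, were left out. P-values measure the spread between libraries labelled as biological replicates, those of the knockout included. The antibody comparison used 18 libraries in a fit of its own. Levels between genes are compared only per kilobase of annotated exon.

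Same-numbered WT libraries of the 2 groups deviated together. Correlations were 0.550, 0.482 and 0.500 over 8509 genes, against -0.433 to -0.0702 for other pairs. The numbers were therefore taken to pair the WT samples, but the main fit holds no block for replicate. Values with the replicate block are given where they change a call. Unless WT libraries alone are named, the block in the IFNγ comparison also covered the knockout libraries. Each knockout library then shared a term with the same-numbered WT libraries, and pairing across genotypes was not tested. A call lost under that block therefore does not show that pairing the WT samples alone would lose it. The quasi-likelihood test was also run on simulated data of 12649 genes. It recovered 68 of 100 genes changed by 2-fold and 83 of 100 changed by 3-fold, with 5 false calls. Only 200 genes were changed there, evenly up and down, with a dispersion of 0.04 for every gene and no outlying library. The real data differ in these points, so the recovery holds for that setting only.

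Genes were named by rule, as the 12 largest changes in each direction at a mean of at least 3 log2 CPM without overlap (predicted Gm genes left out), the 4 largest called and 2 most abundant uncalled members of each list, and the whole receptor and IRF lists. Other list members named were chosen after their values were seen. The groups, lists and comparisons were chosen with earlier results of these data known. Promoters were read from RefSeq (GRCm38.p6), and exon overlaps from GENCODE M21. Alternatives tried were DESeq2 1.42.0, RLE scaling, other filters, a strand column, the replicate block, WT libraries alone and each library left out. A ratio of counts has a 95% exact interval that covers counting error only, and a group at 0 was set to a floor of 3 counts over its 3 libraries. Several members of the lists are counted but not reported singly here.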

Additional observations from a re-analysis of the deposited data

How the results depend on the processing

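Other processing gave between 2498 and 2709 raised and between 2494 and 2710 lowered genes (DESeq2, RLE scaling, no filter, a minimum mean of 1 CPM, or a strand column), with 2214 or more of the 2609 raised and 2198 or more of the 2631 lowered genes kept in each. A log2 limit of 1 left 1451 and 1397. The replicate block shared by WT and knockout libraries gave 2344 and 2333. A block on the 6 WT libraries alone, an alternative chosen after seeing the data, gave 3663 and 3820. Those libraries gave 3336 and 3386 without a block. Leaving out 1 library gave 1884 to 3647 raised and 1925 to 3557 lowered genes, and raised genes made up 46.9% to 51.7% of calls. With an arm of 1 knockout library, that library was assumed to vary like the others. The share of raised genes among calls is set in part by the scaling, which places most genes near no change. The count of genes whose response differed between genotypes was 83 with DESeq2 and 231 with no filter, and 0 to 3359 with 1 library left out. The count of IFNγ-raised genes lower with the IFNAR1 antibody was 101 with DESeq2, 72 with the replicate block, 16 with the 9 WT libraries alone, 18 for genes raised by more than 2, and 6 to 225 with 1 library left out. Of 4298 values for single genes, 103 lost a call, 46 gained one and 1 reversed, that of Top2a (-0.58 to 0.028 with 1 library left out, not called). Of 1044 counts over lists, 971 stayed within 1.5 times. The number of lowered mitosis genes went from 0 to 4 with no filter or without untreated replicate 2, and to 11 with the block on the 6 WT libraries. The block shared by WT and knockout libraries lost the calls of Cxcl1, Mmp8, Osm, Polr2a, Ptpn1 and Timd4 among the named genes. The causes of these shifts were not tested. At 7057546 to 9512215 counts a WT library, genes with few counts in 1 group have wide intervals.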

Other observations

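A set of genes was at or near 0 counts in one state and well expressed in the other. Of the raised genes, 88 had at most 3 counts over the 3 untreated libraries together, 28 of them 0, and 20 reached at least 100 counts with IFNγ. Beyond the GBPs, Nos2 and Tlr12, these included Serpina3f, a serine protease inhibitor of the chromosome 12 cluster, with 1 and 9556 counts, a ratio of 11800 (counting interval 2110 to 464000). Sectm1a had 0 and 1819 counts, at least 746-fold higher, and Klrk1, which encodes the activating receptor NKG2D, 2 and 1187, a ratio of 730 (interval 202 to 6030). Dnase1l3, a secreted nuclease, had 1 and 907 counts, a ratio of 1120 (interval 200 to 44100). Cd38, an enzyme that consumes NAD, had 2 and 198, a ratio of 122 (interval 33.3 to 1010). Ocstamp, a gene of cell fusion in osteoclasts, had 0 and 185, at least 75.9-fold higher, and Mir155hg, the host transcript of miR-155, 3 and 107, a ratio of 43.9 (interval 14.6 to 216).

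In the other direction 39 lowered genes had at most 3 counts over the treated libraries, and 4 of them at least 100 untreated. Nptx1 had 252 and 1 counts, a ratio of 205 (interval 36.4 to 8120). Dkk2, a Wnt antagonist, had 116 and 1, a ratio of 94.3 (interval 16.6 to 3760). Slco2b1 and Prokr1 had 135 and 131 counts untreated and 3 each with IFNγ. These genes were chosen for their counts, after the values were seen.

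Of 229 long intergenic transcripts tested, 31 rose (13.5%) and 36 fell (15.7%), and of 11469 protein-coding genes, 2377 (20.7%) and 2493 (21.7%). Over all genes tested, 20% rose and 20.1% fell. Of 295 transcripts annotated as antisense, 54 rose (18.3%) and 21 fell (7.12%). Without strand in the counts, these cannot be told from their sense partners.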
